A study of Rattus norvegicus with 6 samples.

Results

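The 10 transcripts described here belong to the circadian clock: Bmal1, Clock, Nr1d1, Nr1d2, Per1, Per2, Dbp, Tef, Bhlhe40 and Bhlhe41. They were chosen by gene symbol, 10 of the 14506 genes that the deposited table could name, and each was measured by a single transcript cluster, the probe group that an array uses for a gene. RNA came from the gastrocnemius, the large calf muscle, of male Sprague-Dawley rats made obese by their diet. They were 12 weeks old at the start and 20 weeks old at sampling, after 8 weeks on freely available high-fat, high-sucrose food. Each food supplied 4.6 kcal per gram and took 10% of its energy from protein, which was casein in the control group, skim milk powder in the dairy group, and casein (7.1%) with added leucine (2.9%) in the leucine group. Although 4 rats per diet are stated, 2 arrays per diet were analysed, 6 in all, and nothing says that the arrays came from separate rats, so p-values measure only the spread between these samples. No label or protocol used here gave the hour of sampling or the lighting schedule.

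The molecular clock is a loop of transcription and repression that runs in nearly every cell, muscle fibres included. BMAL1 and CLOCK bind E-boxes and switch on the Per, Cry, Nr1d, Dbp, Tef and Bhlhe genes. The PER and CRY proteins then block BMAL1 and CLOCK, the REV-ERB receptors encoded by Nr1d1 and Nr1d2 repress Bmal1 through their own DNA element, and DBP and TEF act on D-boxes, where the repressor NFIL3 competes with them. As a result, Bmal1 transcripts peak at a time of day when Dbp and Nr1d1 transcripts are near their trough.

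RefSeq promoter windows of the GRCr8 build, from 250 bases before to 50 bases after a start site, existed for all 10 genes. The windows were searched on both strands for the E-box CACGTG, for TAGGTCA, the core of the REV-ERB and ROR element, and for the D-box TTATGTAA. The E-box was present in 4 of the 10 genes against 7.08% of 27457 genes with a window, TAGGTCA in Bmal1 alone against 2.83%, and the D-box in Per2 alone against 0.958%. A looser D-box, TTANNTAA, which contains the first form, was again present in Per2 alone against 6.32%. The cAMP element TGACGTCA was in 0 of the 10 against 2.0%, and its TGACG part in Nr1d2 and Per2 against 23.0%. The 6 stretches with an E-box, a TAGGTCA or a D-box are shown because the relations examined below run between these genes. Capitals mark the motif and up to 30 bases stand on each side, 5′ to 3′ on the strand of the gene.

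Bmal1: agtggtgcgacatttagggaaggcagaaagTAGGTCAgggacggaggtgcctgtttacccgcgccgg
Nr1d1: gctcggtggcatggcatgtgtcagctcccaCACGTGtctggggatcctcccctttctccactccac
Tef: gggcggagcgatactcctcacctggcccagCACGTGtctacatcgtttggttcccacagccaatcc
Bhlhe40: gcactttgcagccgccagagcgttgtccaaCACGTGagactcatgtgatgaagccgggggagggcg
Bhlhe41: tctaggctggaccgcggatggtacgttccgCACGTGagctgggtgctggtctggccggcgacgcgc
Per2: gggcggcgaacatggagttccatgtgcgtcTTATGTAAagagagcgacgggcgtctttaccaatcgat

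In GRCr8 these lie at chr1:176766282-176766348 on the plus strand for Bmal1, chr10:84229610-84229675 on the minus strand for Nr1d1 and chr7:115206599-115206664 on the plus strand for Tef. Bhlhe40 lies at chr4:143174200-143174265 (plus), Bhlhe41 at chr4:180569368-180569433 (minus) and Per2 at chr9:99497148-99497215 (minus). The first base of the motif stood at −16 from the start site in Bmal1, −48 in Bhlhe41, −191 in Nr1d1, −192 in Per2, −198 in Tef and −220 in Bhlhe40. Nr1d1 has a pair of annotated windows, and its E-box lay in the one of the internal start site. The Tef window also belongs to a start site inside the annotated gene, chr7:115197180-115221930. So do the windows of Bmal1 (chr1:176766222-176864741), Bhlhe41 (chr4:180565003-180569415) and Per2 (chr9:99454828-99497069). The stretch shown for Bmal1 therefore lies within the annotated gene. A match of letters is a description and does not show that a factor binds there.

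The labels were checked against marker genes, and casein array 2 stood apart. The 12 fast-fibre markers had median levels at percentile 99.9 of all genes on each of the 6 arrays. Over all genes, casein array 2 correlated with the remaining arrays at a mean r of 0.974, and each of those at 0.985 to 0.988. On casein array 2 the summed linear signal of 10 slow-fibre markers was 919, against 8969 to 13373 on the other 5, and that of 12 hepatocyte markers was 4432, against 145 to 1319. The slow myosin Myh7 stood at 6.07 there and at 10.7 to 11.4 elsewhere, and albumin (Alb) at 11.7 there and 4.81 to 9.80 elsewhere. The protocol texts mention liver in the storage and RNA steps. Since array 2 is a casein control, values against casein are also given without it, and the part of fibre type, of liver transcripts and of other cell types in any clock result was not tested.

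**Figure D1:**
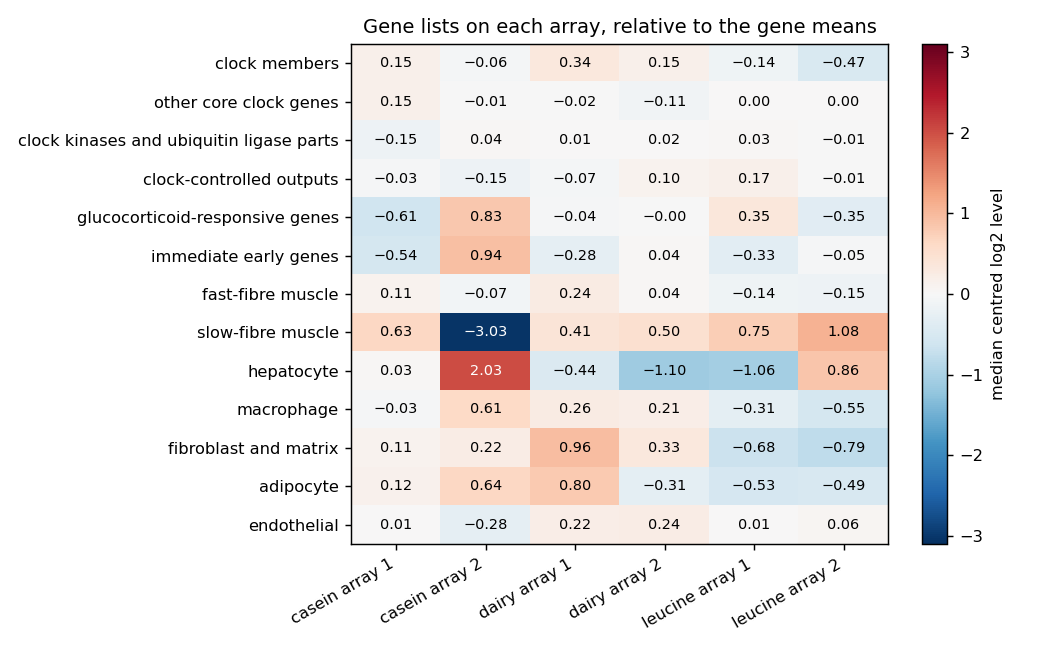
Median log2 level of each gene list on each array, relative to every gene's mean over the 6 arrays; colour and number give the same value. Casein array 2 is lowest for slow-fibre markers (−3.03) and highest for hepatocyte markers (2.03) and for immediate early (0.94) and glucocorticoid-responsive (0.83) genes, while both leucine arrays are lowest for matrix markers (−0.68 and −0.79).

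All 10 clock transcripts had mean levels above the median gene. Bmal1 was the dimmest at a mean of 4.32, percentile 52.6 of all genes, and Bhlhe40 the brightest at 8.99, percentile 97.3. The range over the 6 arrays lay above percentile 90 of all genes in 6 of them, namely Bmal1, Nr1d1, Per1, Dbp, Bhlhe40 and Bhlhe41. Their ranges ran from 1.42 for Per1 to 2.31 for Bmal1, in log2 units, where the median gene spanned 0.44. Clock spanned 0.24 and Per2 0.25, or percentiles 22.7 and 23.8.

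The variation was split differently between and within diets. Between-diet differences held 93.8% of the sum of squares of Nr1d1, 83.3% for Tef, 82.7% for Bhlhe40 and 65.3% for Nr1d2, while the median gene had 43.4%. For Bhlhe41 the share was 42.0%, for Per1 39.1%, for Dbp 34.3%, for Clock 25.3%, for Per2 22.6% and for Bmal1 3.97%. The most variable member, Bmal1, therefore varied almost wholly between arrays of the same diet, and the next, Nr1d1, almost wholly between diets. For Bmal1 this lay chiefly in the casein pair, which holds casein array 2. Array 2 minus array 1 was 2.31 with casein, −0.34 with dairy and 0.86 with leucine. For Dbp the same differences were −2.26, −0.01 and −0.64.

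**Figure D2:**
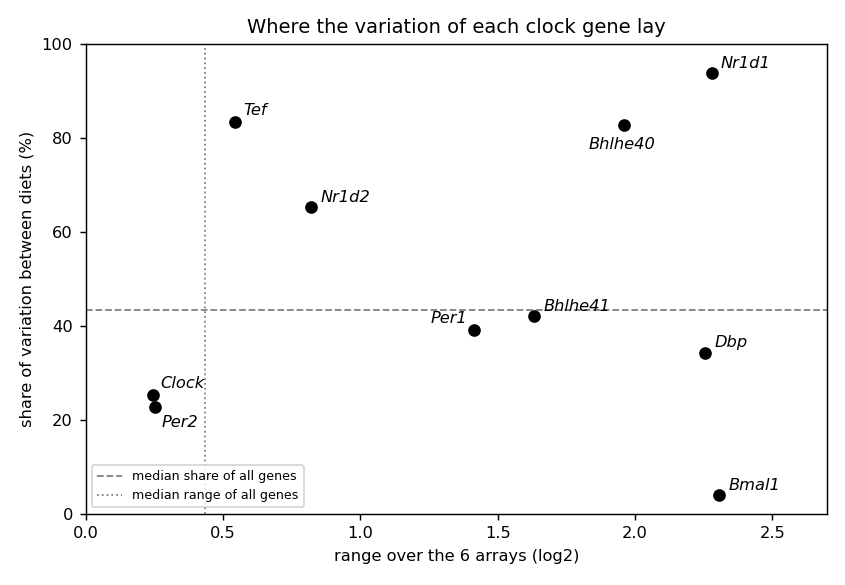
Each point is a clock gene, with the range of its log2 signal over the 6 arrays on the x axis and the share of its sum of squares that lies between the 3 diets on the y axis; the lines mark the medians of all 14506 genes. Nr1d1 and Bhlhe40 combine a range near 2 with shares above 80%, while Bmal1 has the widest range and a share of 3.97%.

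The activators come first. Bmal1, the partner of CLOCK and the component without which the loop stops, stood at 3.37 and 5.67 on the casein arrays, 4.45 and 4.11 on the dairy arrays and 3.74 and 4.60 on the leucine arrays. Its highest and its lowest value of all 6 were both casein arrays, 4.94-fold apart, so that the groups overlapped throughout. The model gave log2 fold changes of −0.35 ± 0.84 (SE) for leucine minus casein, −0.24 ± 0.84 for dairy minus casein and −0.11 ± 0.84 for leucine minus dairy. Without casein array 2 the first was 0.80 and the second 0.91, a reversal of both. Clock, which encodes the histone-acetylating partner of BMAL1, stood at 6.80 and 6.91 with casein, 6.93 and 6.77 with dairy and 6.86 and 7.02 with leucine. These values overlapped between all diets, and the largest of its 3 log2 differences was 0.09 ± 0.10 (SE). Without casein array 2, leucine minus casein was 0.14 and dairy minus casein 0.05.

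Nr1d1, which encodes REV-ERBα, the repressor of Bmal1 and a regulator of mitochondrial and lipid genes in muscle, differed most between diets. It stood at 7.46 and 6.81 with casein, 8.14 and 7.88 with dairy and 5.86 and 6.11 with leucine. The 3 diets did not overlap, with leucine lowest and dairy highest. Leucine minus dairy was −2.02 ± 0.26 (SE), a 4.06-fold lower level, which was the 4th largest difference of the 14506 genes and the 19th by p (unadjusted p = 0.000981, adjusted p = 0.514 by limma). Leucine minus casein was −1.15 ± 0.26 (unadjusted p = 0.00914, adjusted p = 0.386), or −1.47 without casein array 2. Dairy minus casein was 0.88 ± 0.26 (unadjusted p = 0.0234, adjusted p = 0.833), or 0.56 without that array.

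The Nr1d1 gene lies at chr10:84224599-84231812 in GRCr8, and its end overlaps by 1061 bases with Thra, the thyroid hormone receptor α gene at chr10:84198141-84225659. Thra was looked at after the Nr1d1 values were seen, because the genes share these bases. Nr1d1 lies on the minus strand, and whether any cluster in the shared part could measure both genes was not tested. Thra stood at 5.97 and 5.72 with casein, 6.40 and 6.10 with dairy and 5.94 and 5.62 with leucine. Its leucine minus dairy value was −0.47 ± 0.18 (SE; adjusted p = 0.903 by limma) and its leucine minus casein value −0.07 ± 0.18. Its dairy minus casein value was 0.40 ± 0.18 (adjusted p = 0.833). In every comparison Thra had the same sign as Nr1d1. Where the probes of the Nr1d1 cluster lie, and which strand they read, was not analysed here.

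Nr1d2, the paralogue that encodes REV-ERBβ, varied less. It stood at 7.97 and 7.42 with casein, 8.24 and 8.24 with dairy and 8.02 and 7.96 with leucine. Casein array 2 was the lowest of the 6 and the dairy arrays were the highest. Dairy minus casein was 0.54 ± 0.20 (SE; unadjusted p = 0.0472, adjusted p = 0.833), or 0.26 without casein array 2. Leucine minus casein was 0.30 ± 0.20, the opposite sign to Nr1d1, and 0.02 without that array. Leucine minus dairy was −0.25 ± 0.20 for Nr1d2, beside −2.02 for Nr1d1. The difference between the paralogues was not tested.

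The period genes encode the proteins that bind and block BMAL1 and CLOCK. Per1, which is also switched on quickly by glucocorticoids and by cAMP signalling, stood at 5.98 and 6.79 with casein, 6.59 and 5.79 with dairy and 5.98 and 5.38 with leucine. Casein array 2 was the highest and leucine array 2 the lowest, and all diets overlapped, since casein array 1 and leucine array 1 held the same deposited value. Leucine minus casein was −0.71 ± 0.44 (SE), or −0.30 without casein array 2, and dairy minus casein −0.20 ± 0.44, or 0.21 without it. Per2 stood at 5.80 and 5.55 with casein, 5.60 and 5.77 with dairy and 5.56 and 5.60 with leucine, which overlapped in every pair. Its log2 differences lay between −0.11 and 0.01, each with an SE of 0.12. Without casein array 2, leucine minus casein was −0.22 and dairy minus casein −0.12.

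Bhlhe40 and Bhlhe41 encode DEC1 and DEC2, which compete with BMAL1 and CLOCK for E-boxes. Bhlhe40 stood at 9.13 and 9.93 with casein, 9.40 and 9.15 with dairy and 7.97 and 8.38 with leucine. Both leucine arrays lay below the other 4, while casein and dairy overlapped. Leucine minus casein was −1.36 ± 0.32 (SE), a 2.56-fold lower level (unadjusted p = 0.0113, adjusted p = 0.399 by limma), or −0.96 without casein array 2, the highest of the 6. Leucine minus dairy was −1.10 ± 0.32 (unadjusted p = 0.0233, adjusted p = 0.765), or 2.15-fold lower. Dairy minus casein was −0.25 ± 0.32, or 0.15 without casein array 2. Bhlhe41 stood at 7.96 and 6.75 with casein, 8.10 and 7.46 with dairy and 7.22 and 6.47 with leucine. Its casein arrays spanned most of the range of the other 4, so leucine minus casein was −0.51 ± 0.53 and leucine minus dairy −0.94 ± 0.53. Without casein array 2 the first became −1.12. Dairy minus casein was 0.43 ± 0.53 for Bhlhe41, or −0.18 without that array.

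Dbp and Tef encode factors of the PAR bZIP family, which carry the rhythm from the loop to its output genes through D-boxes. Dbp stood at 8.75 and 6.49 with casein, 8.47 and 8.45 with dairy and 7.62 and 6.98 with leucine. As for Bmal1, the highest and lowest values were both casein arrays, here 4.77-fold apart and in the reverse order. Leucine minus dairy was −1.16 ± 0.80 (SE; adjusted p = 0.903 by limma), a 2.23-fold lower level with no overlap of the arrays. Leucine minus casein was −0.32 ± 0.80, or −1.44 without casein array 2, and dairy minus casein 0.84 ± 0.80, or −0.28 without it. Tef spanned a narrower range, at 7.86 and 7.62 with casein, 7.81 and 7.81 with dairy and 7.47 and 7.32 with leucine. Its leucine arrays were the lowest of the 6. Leucine minus casein was −0.35 ± 0.11 (unadjusted p = 0.0308, adjusted p = 0.462), or −0.47 without casein array 2, and leucine minus dairy −0.42 ± 0.11 (unadjusted p = 0.0165, adjusted p = 0.704). Dairy minus casein was 0.07 ± 0.11 for Tef, or −0.048 without casein array 2.

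**Figure D3:**
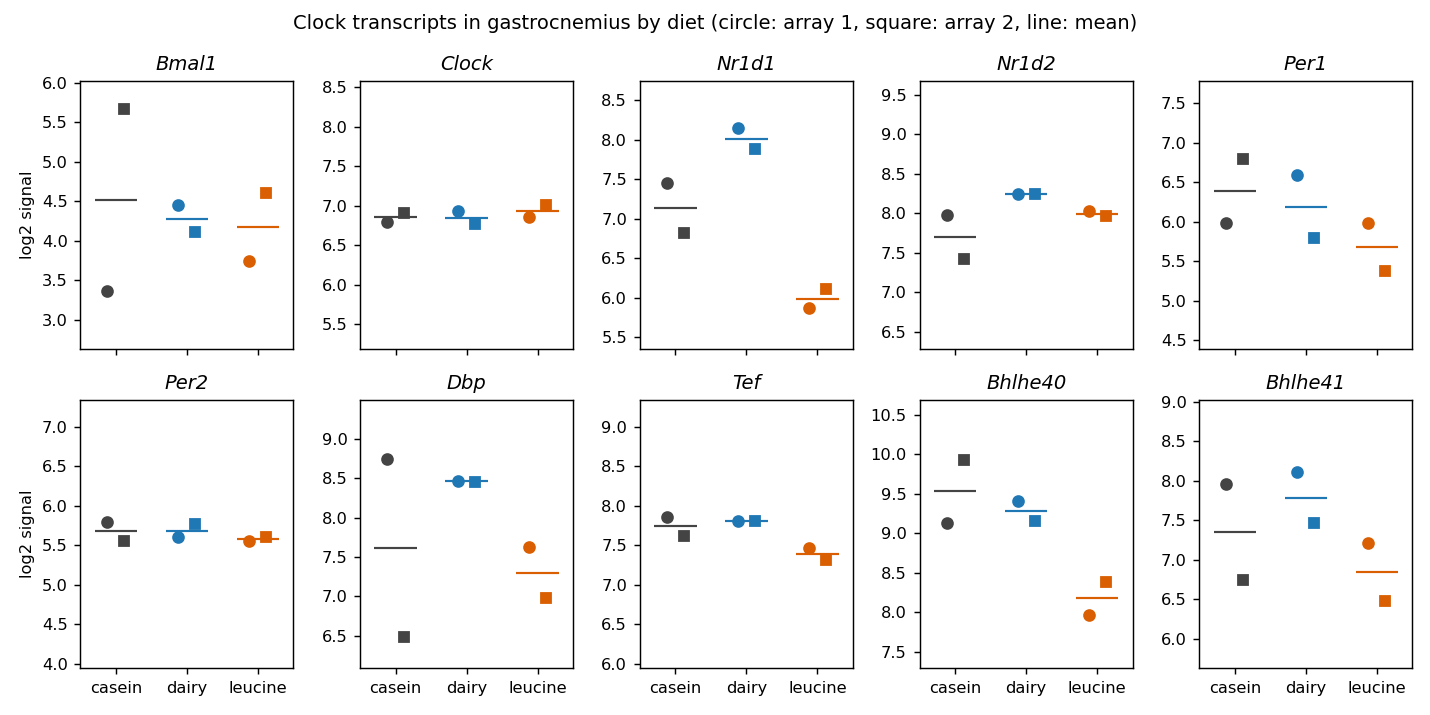
Log2 signal of the 10 clock transcripts by diet, 1 point per array, with circles for array 1, squares for array 2 and a line at the mean of the 2 arrays; every panel spans the same number of log2 units. Nr1d1 and Bhlhe40 are lowest on both leucine arrays, while Bmal1 and Dbp have their extremes on the 2 casein arrays, in opposite order.

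By comparison, 0 of the 10 passed an adjusted p of 0.05 over all genes with limma in any pair of diets, where 0% of the 14506 genes did. For leucine minus casein, 8 of 10 were lower and 2 higher, with a median of −0.35 where the median of all genes was 0. Nr1d1, Bhlhe40 and Tef had an unadjusted p under 0.05, 3 of 10 where 9.61% of all genes did. The same 3 had arrays that did not overlap, against 31.5% of all genes, so that this share was near the background. For dairy minus casein, 6 were higher and 4 lower, with a median of 0.04. Nr1d1 and Nr1d2 had an unadjusted p under 0.05, against 4.8% of genes, and the same pair did not overlap, against 23.2%.

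For leucine minus dairy, 9 of 10 were lower and Clock alone was higher. The median of the 10 was −0.46, where the median of all genes was 0. The fold changes and overlaps of this comparison use no casein array, but its SE and p pool the spread of the casein arrays too. Nr1d1, Tef and Bhlhe40 had an unadjusted p under 0.05, 3 of 10 against 5.7% of genes. For 6 of 10 members every leucine array lay below every dairy array, against 28.3% of genes in either direction. These were Nr1d1, Nr1d2, Dbp, Tef, Bhlhe40 and Bhlhe41. The members share a loop and are not independent of each other, and the first comparison shares its leucine arrays with this one and its casein arrays with the second.

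Markers of fibre types and of other cells also differed between the leucine and dairy arrays, in both directions. All 9 measured matrix and fibroblast markers were lower with leucine than with dairy, and their summed linear signal was 958 and 906 on the leucine arrays, 3426 and 2208 on the dairy arrays and 2420 and 2163 on the casein arrays. All 10 macrophage markers were lower too, with sums of 375 and 323 against 618 and 581 with dairy. All 7 adipocyte markers were lower, with sums of 217 and 199 against 452 and 231, as were all 12 fast-fibre markers, with a median of −0.30, and all 6 endothelial markers, with a median of −0.18. In the other direction, 9 of 10 slow-fibre markers were higher with leucine than with dairy, with a median of 0.44, and 11 of 12 hepatocyte markers, with a median of 0.59. No marker was at 0, as array signals have a floor above it. In a piece of muscle, fewer cells of a type and less RNA per cell cannot be told apart, and the part of these cells in the clock differences was not tested.

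**Figure D4:**
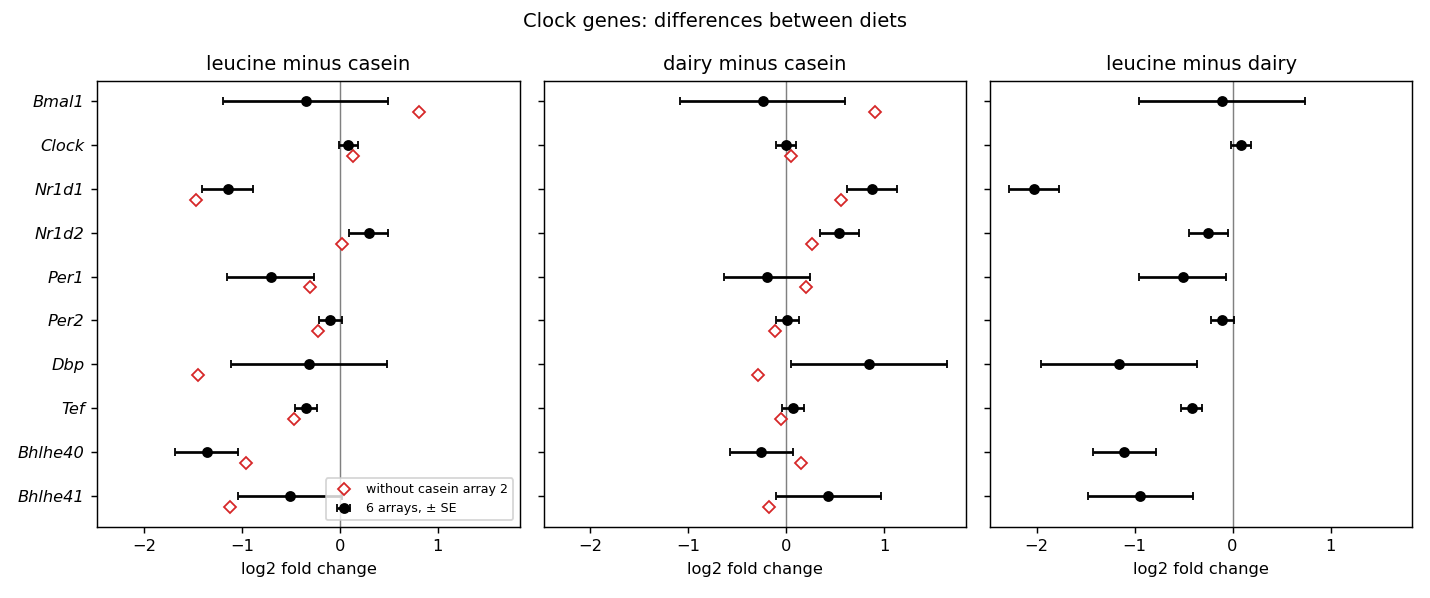
Log2 fold change of each clock gene in the 3 comparisons, with black points and bars for the model value ± SE over 6 arrays and open red diamonds for the difference of means without casein array 2. Nr1d1 lies left of 0 in both leucine panels, and Bmal1 and Dbp shift most when casein array 2 is left out.

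Phase-like relations between the members were then examined. The 2 arrays of each diet were compared first, since diet cannot enter that difference. The casein arrays lay furthest apart, with a median difference of 0.72 over the 10 members and of 0.16 over all genes. Between the dairy arrays the medians were 0.21 and 0.12, and between the leucine arrays 0.33 and 0.12. Casein array 2 had more Bmal1 than casein array 1 (by 2.31 log2 units) and less Dbp, a difference of −2.26. It also had less Bhlhe41, Nr1d1, Nr1d2, Tef and Per2, and more Per1 and Bhlhe40, which stood with Bmal1. Leucine array 2 likewise had more Bmal1 than leucine array 1, by 0.86, while its Dbp differed by −0.64. Between the dairy arrays the difference, array 2 minus array 1, was −0.34 for Bmal1 and −0.01 for Dbp.

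In each of the 3 diets the array with more Bmal1 also had more Clock and more Bhlhe40. Likewise the array with more Dbp had more Tef, Bhlhe41 and Nr1d2 in all 3, although Dbp, Tef and Nr1d2 were nearly equal on the dairy arrays. The pairs that moved together in all 3 were picked out of 45. Some of 45 pairs would do so even if directions were random, and that share was not worked out here. Per1 and Per2 moved in opposite directions in all 3, and Bmal1 and Nr1d1 moved together in 2. With only 3 diets these are counts of direction and carry no test. As a summary, the centred mean of the 8 E-box targets minus that of Bmal1 and Clock was 0.82 and −0.83 on the casein arrays, 0.39 and 0.42 on the dairy arrays and −0.05 and −0.75 on the leucine arrays. The casein arrays thus held both ends of this scale. Clock spanned 0.24 log2 units and Bmal1 2.31, so the activator part of the scale followed chiefly Bmal1. The dairy arrays lay close together and above both leucine arrays.

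Over the 6 arrays, all 45 pairs of members were correlated. By exact permutation tests (two-sided, 720 orders, smallest possible p of 0.00278) 4 pairs had an unadjusted p under 0.05 for Pearson's r, 2 for Spearman's rho, and 0 after Benjamini-Hochberg adjustment over the 45 pairs. Dbp and Bhlhe41 had the highest r, 0.906 (exact permutation p = 0.0181, adjusted p = 0.469), with a rho of 0.886 (p = 0.0333, adjusted p = 0.578). Without the 2 arrays farthest from the median of Dbp, r was 0.787 over 4 arrays. Nr1d1 and Tef had an r of 0.903 (exact permutation p = 0.0208, adjusted p = 0.469) and a rho of 0.771 (p = 0.103, adjusted p = 0.578), and an r of 0.755 without the leucine arrays, the farthest 2. The other pairs with an unadjusted p under 0.05 for r were Tef with Bhlhe41 at 0.846 and Nr1d2 with Dbp at 0.786. Both are pairs of E-box targets, and their rho values were 0.886 and 0.657. Without the leucine arrays, the 2 farthest from the median of Tef, r of Tef with Bhlhe41 was 0.904. Without casein array 2 and dairy array 1, the 2 farthest from the median of Nr1d2, r of Nr1d2 with Dbp was 0.42.

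Bmal1 and Dbp, the pair with opposite phase, had the lowest r, −0.778 (exact permutation p = 0.0542, adjusted p = 0.488), with a rho of −0.771 (p = 0.103, adjusted p = 0.578). Without the casein arrays, the 2 farthest from the median of Bmal1, r was −0.18 over 4 arrays, so that the relation rested on those 2. Bmal1 and Nr1d1 had an r of −0.085 (exact permutation p = 0.876, adjusted p = 0.917) and a rho of −0.029 (p = 1.0). The Bmal1 window holds a letter match to the core of the REV-ERB element, and binding there was not tested. On the leucine arrays, where Nr1d1 was lowest, Bmal1 stood at 3.74 and 4.60, within the range of the other arrays. Without the casein arrays r was 0.27.

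**Figure D5:**
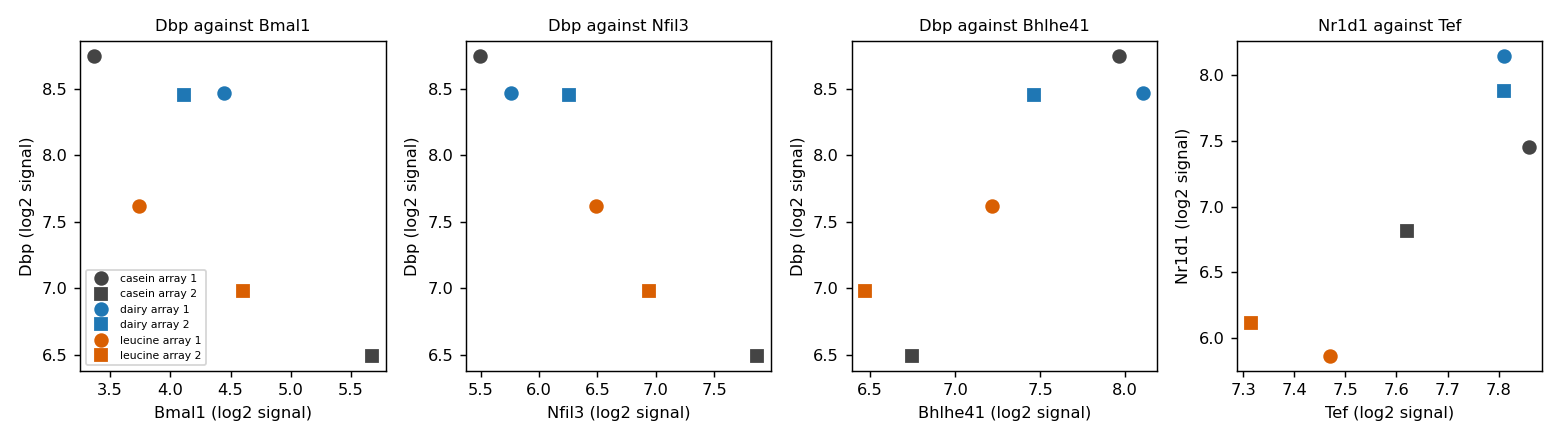
Log2 signals of 4 pairs of genes, 1 point per array, with colours for diets and shapes for array numbers. Dbp lies opposite to Bmal1 (r −0.778) and to Nfil3 (r −0.957) and alongside Bhlhe41 (r 0.906), and the leucine arrays hold the lowest Nr1d1 and Tef values.

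Genes outside the list were ranked by the likeness of their pattern over the 6 arrays, as a description, among 7230 genes brighter than the median gene. The repressor Nfil3 was the second most opposite to Dbp, with an r of −0.957 over 6 arrays. It stood at 5.49 and 7.87 with casein, 5.76 and 6.26 with dairy and 6.48 and 6.94 with leucine, so that it was highest where Dbp was lowest and lowest where Dbp was highest. Zfp189 was the most opposite to Dbp (r −0.989) and Gmeb1 the third (r −0.954), while Sema6c (r 0.995), Plxnd1 (r 0.975) and Uba7 (r 0.972) were the most alike. Most like Bmal1 were Tomm34 (r 0.989), Nutf2 (r 0.987) and Nab1 (r 0.982), and most opposite Ndufb8 (r −0.995), Slc25a42 (r −0.992) and Tfrc (r −0.989). Most like Nr1d1 were Tmem132a (r 0.997), Gnb4 (r 0.988) and the fast myosin light chain Myl1 (r 0.981), and most opposite Fam168a (r −0.946), Strap (r −0.928) and the chaperonin Hspe1 (r −0.926).

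Of 12 further core clock genes, 7 were measured, and Rora, Hlf and Ciart were among those not matched to a row. None of the 7 had an unadjusted p under 0.05 by limma in any comparison. For leucine minus dairy 6 were higher and 1 lower, with a median of 0.10. Of the higher genes, Cry2 was at 0.00098 ± 0.089 (SE). Npas2, Bmal2 and Timeless were dimmer than the median gene, with mean levels of 3.78, 2.88 and 3.46, while Cry1 and Nfil3 were brighter. Npas2 held only 3 distinct values over the 6 arrays. The count is therefore a weak description beside the 9 lower of 10 above. Per3, the third period gene, was the lower gene and stood at 7.01 and 6.07 with casein, 7.15 and 7.18 with dairy and 6.94 and 6.80 with leucine. Casein array 2 was thus its lowest, as for Dbp. Cry1 and Cry2, the cryptochrome repressors, spanned 0.41 and 0.21 log2 units over all arrays. Cry1 had a leucine minus dairy value of 0.25 ± 0.10 (SE), Npas2, a stand-in for CLOCK, one of 0.10 ± 0.07, and Bmal2, the paralogue of Bmal1, one of 0.15 ± 0.13. For dairy minus casein Per3 was at 0.63 ± 0.33, or 0.16 without casein array 2. Bmal2 was at −0.29 ± 0.13 in that comparison, or −0.36 without the array, and Cry1 at −0.18 ± 0.10, or −0.23 without it.

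Of the kinases and ubiquitin ligase parts that set the stability of PER and CRY, 6 of 8 were measured. Btrc, a subunit of the ligase that recognises PER, had a leucine minus casein value of 0.23 ± 0.07 (SE; unadjusted p = 0.0251, adjusted p = 0.444 by limma), or 0.20 without casein array 2, and none of the other 5 had an unadjusted p under 0.05. Gsk3b was at 0.18 ± 0.16, or 0.36 without that array, and the casein kinase gene Csnk1e at 0.02 ± 0.12, or 0.12 without it.

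Of 10 clock-controlled output genes 8 were measured, and 3 had an unadjusted p under 0.05 for leucine minus casein, where 9.61% of all genes did. Nampt, the rate-limiting enzyme of NAD salvage, stood at 8.32 and 8.21 with casein, 8.32 and 8.16 with dairy and 8.77 and 8.74 with leucine. Both leucine arrays lay above the other 4, at 0.49 ± 0.09 against casein (SE; adjusted p = 0.353) and 0.52 ± 0.09 against dairy (adjusted p = 0.514). Tspan4, a tetraspanin, stood at 4.59 and 4.48 with leucine and between 5.19 and 5.48 on the other 4 arrays, with −0.80 ± 0.13 against casein and −0.77 ± 0.13 against dairy. Wee1, a kinase that restrains entry into mitosis, was at 0.30 ± 0.10 against casein. Without casein array 2 the values against casein were 0.44 for Nampt, −0.95 for Tspan4 and 0.21 for Wee1. None passed over all genes.

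Per1 and other members also answer to hormones and stimuli, so such genes were counted. Casein array 2, where Per1 and Bhlhe40 were highest, had summed linear signals of 2492 for 9 immediate early genes, against 748 to 1265 elsewhere, and of 7820 for 10 glucocorticoid-responsive genes, against 2351 to 5052. On that array Fos stood at 7.48 (4.11 to 4.79 elsewhere), Junb at 9.19 (4.69 to 5.59) and Mt1 at 11.2 (6.45 to 7.53). A linear sum gives most weight to the brightest genes. Of the 9 immediate early genes 8 were highest on that array, while Jun was lowest there, at 7.19 (7.84 to 8.54 elsewhere). Of the 10 glucocorticoid-responsive genes 7 were highest there, while Pdk4 was lowest, at 9.94 (10.3 to 11.7 elsewhere). Casein array 1, with the lowest Bmal1 and highest Dbp, had the lowest sums of both lists, and its Fkbp5 stood at 5.26 against 7.05 to 7.69 elsewhere. Among all these genes Pdk4, which spares glucose by braking pyruvate dehydrogenase, had an unadjusted p of 0.00954 for leucine minus casein (1.43 ± 0.32 SE, adjusted p = 0.387 by limma), and a value of 1.25 without casein array 2. Jun had an unadjusted p of 0.0323 by limma for leucine minus casein (0.88 ± 0.28 SE, or 0.56 without that array) and of 0.0450 for dairy minus casein (0.79 ± 0.28, or 0.47 without it). The part of these genes in the clock differences was not tested.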

How the data were processed

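The authors deposited 1 log2 signal per array and transcript cluster, and the submitters' processing notes name Affymetrix Expression Console. For its version, background correction and normalization, the sources used here give nothing. The log2 values ran from 1.14 to 13.7, with array medians between 3.46 and 3.56. No counts or detection calls were analysed, so the number of arrays limits the precision. Of 29214 clusters, 15310 had a single gene in the platform annotation. Symbols were updated through the gene identifier, and the cluster with the highest mean was kept per symbol, which left 14506 genes with no filter on dim genes. In 60.8% of genes at least 2 arrays shared an identical value, and so did Per1 and Per2.

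A linear model with diet as its term was fitted to all 6 arrays with limma 3.58.1 in R 4.3.3, with 3 residual degrees of freedom and empirical Bayes moderation. Benjamini-Hochberg adjustment covered all 14506 genes, and the threshold was an adjusted p of 0.05. The procedure was run on simulated data with planted differences and independent noise. Only the mean estimated difference was checked there, not the p-values. Each SE is the moderated limma value for a difference of diet means. It pools the spread of the 3 diets, with 2 arrays per diet, so a gene has the same SE in every comparison. Promoter windows came from RefSeq (GRCr8). The members, gene lists and tests were chosen with earlier results of these data known. Beyond the 10 members, genes named are those of fixed lists with the smallest p per comparison, fixed core clock genes, marker genes, and the 3 genes most alike and most opposite to Bmal1, Dbp and Nr1d1; Thra, Fos, Junb, Mt1, Fkbp5, Myh7 and Alb were named after their values were seen. Alternatives were quantile normalization, a filter on dim genes, the mean of all clusters of a symbol, a fit on the 2 diets alone, an intensity trend, a replicate block and leaving out each array.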

Additional observations from a re-analysis of the deposited data

How the results depend on the processing

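With limma, 0 genes passed the threshold in each comparison under the alternatives run, except that without casein array 1 a single gene, Il6, passed for leucine minus casein (adjusted p = 0.0445) and for dairy minus casein (adjusted p = 0.0379), so that leaving out an array gave 0 to 1. Casein was then a lone array, number 2, assumed to vary like the other groups. Its Il6 signal was 6.97, where casein array 1, the one left out, had 2.0 and the dairy and leucine arrays had 2.12 to 2.40. Of the 10 members 0 passed under any of the alternatives, and the lowest adjusted p was 0.110, for Nr1d2 in leucine minus casein without casein array 1 (0.57). The fold changes themselves can differ only under quantile normalization or without an array of a compared diet, since the other settings leave the group means as they are. Of the 150 member fold changes recomputed in those ways, 129 kept their direction and 21 did not. Quantile normalization turned dairy minus casein to −0.086 for Per2 and −0.048 for Tef.

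Leaving out each array in turn turned the direction of the following. For leucine minus casein Bmal1 ran from −1.50 to 0.80, Per2 from −0.22 to 0.029, Dbp from −1.44 to 0.81 and Bhlhe41 from −1.12 to 0.10. For dairy minus casein Bmal1 ran from −1.39 to 0.91, Clock from −0.081 to 0.076, Per1 from −0.60 to 0.21 and Per2 from −0.12 to 0.13. In the same comparison Dbp ran from −0.28 to 1.97, Tef from −0.048 to 0.19, Bhlhe40 from −0.65 to 0.15 and Bhlhe41 from −0.18 to 1.04. For leucine minus dairy Bmal1 ran from −0.54 to 0.32. The level of E-box targets minus that of Bmal1 and Clock ran from −1.22 to 0.43 for leucine minus casein and from −0.41 to 1.24 for dairy minus casein. Without the 2 arrays farthest from the median of Bmal1, here both casein arrays, r with Nr1d1 was 0.27, with Per1 −0.12 and with Per2 0.0028. Beyond the arrays left out, the cause was not tested.

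With the replicate number as a block, 0 members passed and the lowest adjusted p of a member was 0.402. Across genes, the array 2 minus array 1 difference of casein correlated at 0.0865 with that of dairy and at 0.179 with that of leucine, and the last pair at 0.0536. Equal numbers were therefore not read as a pairing. With 2 arrays per diet and 3 residual degrees of freedom, precision is low, and a p above the threshold does not show that diets were alike.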
